A study of Mus musculus with 6 samples.

Results

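The 10 genes described here code for the scaffold of the neuron: the neurofilament subunits Nefl, Nefm, Nefh and Ina, the microtubule-associated proteins Mapt, Map2 and Map1b, the neuronal tubulin Tubb3, and the growth cone proteins Stmn2 and Gap43. They were taken by symbol from a table of 23366 genes, and all 10 were found and tested. RNA-seq of cortex covered 3 d10 depleted mice, A4 to A6, and 3 littermate controls, A1 to A3, each mouse giving a single library. The study used these libraries to look for pathways that accompany neurodegeneration in the model, and the genes taken here cover the cytoskeleton of axons and dendrites.

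The depleted mice were CX3CR1-CreERT2+/- iDTR+/- and the controls were CX3CR1-CreERT2+/- without iDTR, all on a C57BL/6 background. Both genotypes received tamoxifen, which switches on a Cre driven by the Cx3cr1 promoter, active in microglia and in other Cx3cr1-expressing cells. The Cre opens the iDTR cassette, so that diphtheria toxin kills cells that carry it. Whether the controls of these libraries received the toxin is not given in the sources used here, so an effect of the toxin and an effect of depletion cannot be told apart. The methods describe the mice as matched for age and sex, and no age is given in the sources used here. The labels name the tissue as brain cortex and the study's text as frontal cortex.

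Neurofilaments are the intermediate filaments of axons, in which a light (Nefl), a medium (Nefm) and a heavy (Nefh) chain assemble together with α-internexin (Ina) and set the calibre of large axons. Microtubules, built from α- and β-tubulin, are the tracks for transport, and tau (Mapt) binds them in axons while MAP2 binds them in dendrites. Neurofilament light chain leaks from damaged axons and is measured in blood and cerebrospinal fluid as a protein marker of axonal injury, which the RNA level of Nefl in tissue does not measure.

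The deposited values are FPKM, fragment counts scaled for transcript length and library depth, so they can be compared between genes as well as between mice. The steps between low FPKM values put the depth at about 11.2 to 20.6 M fragments in the mice other than A5. In A5 the best match was 10.7 M, and 7.14 and 14.2 M matched nearly as well. These values are close to multiples of a smaller depth, below the range searched, so A5 may be shallower than any of them. The fewest fragments behind any value of the 10 genes were those of Nefh in A5. They came to 1272 at 10.7 M, a counting error of 2.8%, or to 849 and 3.43% at 7.14 M. At these depths the spread between mice and not the depth limited the comparison, and a shallower A5 would raise the error. Of the cortical neuron markers, Slc17a7, the glutamate transporter of cortical excitatory neurons, was at 325.02 to 383.32 FPKM. The 10 brainstem and cranial motor markers summed to 14.4 to 25.1 FPKM, of which the hindbrain gene Hoxb3 reached at most 0.08. Markers of striatum, hypothalamus and choroid plexus were also present, with sums given below. The 10 microglia markers summed to 114 to 138 FPKM in control and 119 to 157 FPKM in depleted mice, none of them at 0 in any mouse. Microglial RNA was thus present in the depleted mice at d10. The sums cover opposite shifts, with 3 markers higher and 2 lower in every depleted mouse than in any control. Over all genes tested, 17.6% had groups that did not overlap.

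The library of A4 stood apart from the others. Over 0.5 log2 units separated it from the mean of the other mice in 11.7% of the genes tested, against 5.21% and 6.83% in A5 and A6 and 2.36% to 2.56% in the controls. Results that rest on A4 are therefore given with and without it. RNA of 4 Y-linked genes summed to 5.56 FPKM in A4 and to at most 0.16 in the others, and Xist was at 4.74 FPKM in A3 and at 30.86 to 46.66 in the other mice. In A3 the hypothalamic markers summed to 476 FPKM, against 102 to 150 in the other mice. Most of this came from Pomc, at 268.98 FPKM in A3 and at 0.82 to 9.42 in the other mice, and without Pomc the sums were 207 FPKM in A3 and 101 to 147 in the others. The part of these features in the results was not tested.

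The genes lie on 8 chromosomes, and only Nefl and Nefm are neighbours. In GENCODE M21 on GRCm38, Nefl lies at chr14:68083863-68089095 on the plus strand and Nefm at chr14:68082590-68124846 on the minus strand. The last exon of 1 of the 2 Nefm transcripts, Nefm-202, covers the first exon of Nefl on the opposite strand. Through it, 31.28% of the 75-base windows of the Nefl transcript are also in Nefm-202, and Nefm-201 shares none. Ina (chr19:47014698-47025327, plus strand) shares 12.07% of its windows with Nt5c2 on the opposite strand, and the other 7 genes share none. Whether reads were counted by strand is not given in the sources used here, so reads of the shared stretches could have been assigned to either gene. The remaining positions are Nefh chr11:4938754-4948064 (minus), Mapt chr11:104231390-104332090 (plus), Map2 chr1:66175273-66442583 (plus), Map1b chr13:99421446-99516540 (minus), Tubb3 chr8:123411424-123422015 (plus), Stmn2 chr3:8509360-8561606 (plus) and Gap43 chr16:42248442-42340651 (minus). The values are of whole genes, and the longest coding transcripts have 3 exons in Ina and Gap43, 4 in Nefl, Nefm, Nefh and Tubb3, 5 in Stmn2, 7 in Map1b, 10 in Mapt and 15 in Map2.

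The 250 bases before the RefSeq gene start (GRCm38.p6) were at hand for 4 of the genes. All 4 are shown, picked by availability and not by their levels. Of them, Ina and Tubb3 were low in A4 while Map2 and Map1b were near their control levels there, as given below. Capitals mark GGGCGG, the GC box bound by Sp1-type factors, and TATAA, the core of a TATA box, on either strand.
Ina, chr19:47014431-47014680, plus strand: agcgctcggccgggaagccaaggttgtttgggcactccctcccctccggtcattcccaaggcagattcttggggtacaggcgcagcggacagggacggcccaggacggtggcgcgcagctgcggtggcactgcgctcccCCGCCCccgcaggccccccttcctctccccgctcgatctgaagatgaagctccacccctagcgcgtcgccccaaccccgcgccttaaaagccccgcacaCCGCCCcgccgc
Tubb3, chr8:123411303-123411552, plus strand: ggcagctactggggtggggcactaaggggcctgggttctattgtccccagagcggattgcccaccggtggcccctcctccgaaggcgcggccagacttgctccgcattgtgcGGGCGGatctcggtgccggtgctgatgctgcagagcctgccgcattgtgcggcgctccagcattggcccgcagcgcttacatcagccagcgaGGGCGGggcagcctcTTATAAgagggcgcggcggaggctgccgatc
Map2, chr1:66175079-66175328, plus strand: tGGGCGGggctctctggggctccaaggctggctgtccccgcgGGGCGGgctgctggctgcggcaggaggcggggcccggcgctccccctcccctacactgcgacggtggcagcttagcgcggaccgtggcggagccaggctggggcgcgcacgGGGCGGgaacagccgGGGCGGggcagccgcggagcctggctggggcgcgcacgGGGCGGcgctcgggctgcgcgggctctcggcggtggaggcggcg
Map1b, chr13:99516603-99516852, minus strand: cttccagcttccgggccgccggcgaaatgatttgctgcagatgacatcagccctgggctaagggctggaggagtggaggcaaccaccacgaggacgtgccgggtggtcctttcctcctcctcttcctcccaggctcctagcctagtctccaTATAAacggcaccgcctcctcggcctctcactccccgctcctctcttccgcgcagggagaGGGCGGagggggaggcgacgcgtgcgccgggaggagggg
All 4 stretches hold GGGCGG, with 5 matches in Map2, 2 each in Ina and Tubb3 and 1 in Map1b, and 32.7% of 32851 promoters of the same length hold it. TATAA was found in Tubb3, 31 and 30 bases before the start on the 2 strands of 1 overlapping match, and in Map1b, 99 bases before the start, against 22.8% of all promoters. CCAAT was found in Tubb3 alone, 77 bases before the start, and is in 33.8% of promoters. TGACGT, the core of a cAMP response element found in 6.47% of promoters, was in none of the 4 stretches. GENCODE places a start of Tubb3 and of Map2 inside the stretch shown. The letters shared by genes low in A4 were also in genes that were not low there.

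Among the controls the 10 genes were steady, and 4 of them lay close together at the top. Mean control levels were 207 ± 5.89 FPKM (SD, n = 3) for Stmn2, 199 ± 6.16 for Tubb3, 195 ± 13.5 for Gap43 and 185 ± 8.26 for Map2, and the ranges of neighbours in this order overlapped. Below them came Nefl at 147 ± 6.21, Mapt at 119 ± 3.72, Nefm at 87.6 ± 4.60, Map1b at 79.3 ± 4.78, Ina at 56.0 ± 2.18 and Nefh at 26.6 ± 2.29 FPKM. Of these lower neighbours only Nefm and Map1b overlapped. The SD was 2.85% to 8.63% of the mean in the controls, and in the depleted mice it ran from 4.24% (Map1b) and 5.84% (Map2) to 23.6% (Gap43) and 26.0% (Nefl).

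None of the 10 genes differed between depleted and control mice in limma's moderated test on log2(FPKM + 1) at an adjusted p under 0.1. This is the threshold of the study but not its test, and 4 (0.0278%) of the 14385 genes tested were called. The study's test on raw counts called many more genes, so the count of 0 holds for the test used here. At an unadjusted p under 0.05 the count was also 0, against 10.5% of all genes. In no gene were the depleted and the control mice fully separated, whereas 17.6% of all genes tested had groups that did not overlap. The mean was higher in depleted mice for 3 genes and lower for 7, with a median log2 fold change of -0.08 against -0.01 for all genes. Without A4 it was higher for 7 and lower for 3, with a median of 0.04. In the same fit without A4 none was called, and 2 (Nefm and Nefh) had an unadjusted p under 0.05, both higher in depleted mice, where 13.2% of all genes had one, 5.99% in that direction. A p-value above the threshold does not show equal levels: the 95% intervals reached 0.16 to 0.40 log2 units to either side of the fold changes.

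Nefl, the light chain and the core of the filament, was the gene with the lowest value of A4 relative to the controls. Controls A1 to A3 had 149.88, 140.26 and 151.87 FPKM, and depleted mice A4 to A6 had 87.12, 146.45 and 139.09 FPKM. A4 was at 59.1% of the control mean, A5 lay inside the control range and A6 just under it. Group means (± SD, n = 3) of 147 ± 6.21 and 124 ± 32.3 FPKM corresponded to -0.28 on the log2 scale (SE 0.175, 95% interval -0.68 to 0.12, limma adjusted p = 0.6). Without A4 it was -0.04 (-0.19 to 0.10). In whole cortex, fewer neurons and less RNA per neuron cannot be told apart.

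Nefm, the medium chain, was at 82.29, 90.78 and 89.61 FPKM in the controls and at 68.61, 95.89 and 106.95 in A4, A5 and A6. A4 lay under every control and A5 and A6 over every control, so the depleted mice fell on both sides. The means of 87.6 ± 4.60 and 90.5 ± 19.7 FPKM gave a log2 fold change of 0.02 (SE 0.148, 95% interval -0.31 to 0.36, limma adjusted p = 0.966), and 0.21 (0.03 to 0.38, adjusted p = 0.327) without A4.

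Nefh, the heavy chain with the long phosphorylated tail, was at 28.60, 24.08 and 27.01 FPKM in the controls and at 26.62, 29.76 and 33.04 in A4, A5 and A6. Here A4 lay among the controls and A5 and A6 above them. The means of 26.6 ± 2.29 and 29.8 ± 3.21 FPKM gave a log2 fold change of 0.16 (SE 0.104, 95% interval -0.08 to 0.40, limma adjusted p = 0.614), and 0.23 (0.02 to 0.45, adjusted p = 0.351) without A4.

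Ina, the fourth subunit in the central nervous system, was at 53.49, 56.72 and 57.64 FPKM in the controls and at 44.52, 51.32 and 55.35 in A4, A5 and A6. A4 and A5 lay under the controls and A6 among them. The means of 56.0 ± 2.18 and 50.4 ± 5.47 FPKM gave a log2 fold change of -0.15 (SE 0.0916, 95% interval -0.36 to 0.06, limma adjusted p = 0.586), and -0.07 without A4.

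The summed level of the 4 subunits was 314, 312 and 326 FPKM in the controls and 227, 323 and 334 FPKM in mice A4 to A6 (exact permutation p = 0.9, two-sided, n = 3 per group). Total subunit RNA was thus low in A4 alone. The make-up of that sum, which does not depend on the scaling between libraries, differed more than the sum itself. Nefm made up 26.2%, 29.1% and 27.5% of it in the controls and 30.2%, 29.6% and 32.0% in A4, A5 and A6. Nefh made up 9.10%, 7.72% and 8.28% in the controls and 11.7%, 9.20% and 9.88% in the depleted mice. For both chains every depleted mouse lay above every control, A5 by a narrow margin. How often shares within other sets of 4 genes separate the groups was not tested. The 4 shares add up to the whole, so a gain in 1 is a loss in others and they are not separate results. For Nefm and Nefh the differences in means were 3.03 and 1.90 percentage points. Each had an exact permutation p = 0.1 (two-sided, n = 3 per group), the smallest that 3 mice against 3 allow, and 0.2 adjusted over the 4 shares. Without A4 they were 3.22 and 1.17 points (exact permutation p = 0.2 for each, the smallest that 2 mice against 3 allow). The share of Nefl was 46.4% ± 1.36 in control and 41.8% ± 3.44 in depleted mice (exact permutation p = 0.2, n = 3), with A5 at 45.3% inside the control range of 45.0% to 47.7%. The difference of -4.66 points was -2.98 points without A4. The share of Ina was 17.6% ± 0.585 and 17.3% ± 2.0 (exact permutation p = 0.9, n = 3), a difference of -0.281 points, and of -1.42 points without A4. No share could pass a threshold of 0.05 in this design.

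Ratios between subunits, chosen after the values were seen, showed which pairs separated the groups. The ratio of Nefl to Nefm was 1.82, 1.55 and 1.69 in the controls and 1.27, 1.53 and 1.30 in A4, A5 and A6. That of Nefl to Nefh was 5.24, 5.82 and 5.62 in the controls and 3.27, 4.92 and 4.21 in the depleted mice. That of Nefh to Ina was 0.535, 0.425 and 0.469 against 0.598, 0.580 and 0.597. In these 3 of 6 pairs the groups did not overlap, and each had an exact permutation p = 0.1 (two-sided, n = 3), or 0.2 adjusted over the 6 pairs. The ratios use the same subunit levels as the shares, and how often other pairs of genes separate the groups was not tested. In log2 units the ratios differed by -0.31, -0.45 and 0.32. The stretch that Nefl shares with Nefm-202 enters 2 of these ratios, and its part was not tested.

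**Figure D1:**
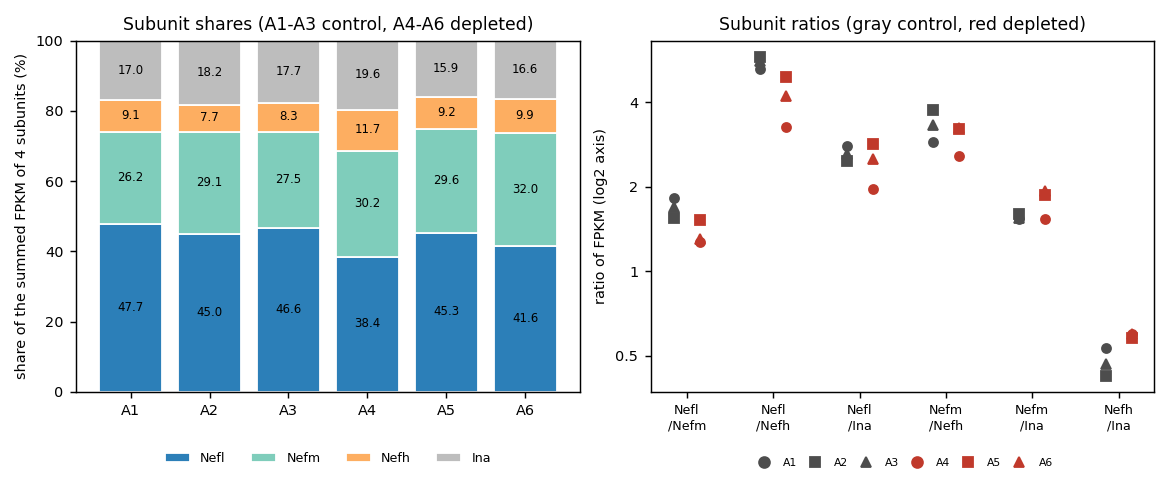
Left, share of Nefl, Nefm, Nefh and Ina in their summed FPKM (%) in each mouse; right, ratio of FPKM for the 6 pairs of subunits in each mouse on a log2 axis (control gray, depleted red). Nefm and Nefh take a larger share in each of A4 to A6 than in any control, and the ratios of Nefl to Nefm, Nefl to Nefh and Nefh to Ina do not overlap between groups.

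Of the 3 microtubule-associated proteins, Mapt was low in A4 while Map2 and Map1b were near their control levels there. Mapt, the axonal protein tau, was at 116.88, 117.82 and 123.75 FPKM in the controls and at 92.32, 114.67 and 125.30 in A4, A5 and A6. A4 was at 77.3% of the control mean, A5 just under the lowest control and A6 just over the highest. The log2 fold change was -0.12 (SE 0.109, 95% interval -0.37 to 0.13, limma adjusted p = 0.716) and 0.01 without A4.

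Map2, which stabilises microtubules in dendrites, was at 184.57, 193.97 and 177.50 FPKM in the controls and at 172.63, 180.58 and 193.70 in the depleted mice. A5 and A6 lay within the range of the controls and A4 slightly under it. The log2 fold change was -0.02 (SE 0.0717, 95% interval -0.19 to 0.14, limma adjusted p = 0.925), and 0.01 without A4. Map1b, prominent in growing axons, was at 76.92, 84.85 and 76.25 FPKM in the controls and at 79.57, 86.14 and 85.17 in the depleted mice. Its values overlapped between groups, with A5 and A6 slightly above the highest control. The log2 fold change was 0.08 (SE 0.0737, 95% interval -0.09 to 0.24, limma adjusted p = 0.736), and 0.11 without A4. Map2 and Map1b had the narrowest intervals of the 10 genes.

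Tubb3, the β-tubulin used as a marker of neurons, was at 204.88, 192.77 and 200.74 FPKM in the controls and at 135.16, 199.72 and 186.76 in A4, A5 and A6. A4 was at 67.8% of the control mean, A5 was within the control range and A6 somewhat under it. The means of 199 ± 6.16 and 174 ± 34.2 FPKM gave a log2 fold change of -0.22 (SE 0.134, 95% interval -0.52 to 0.09, limma adjusted p = 0.597), and -0.05 without A4.

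Of the growth cone genes, Stmn2 codes for a tubulin-binding protein that makes microtubules more dynamic and is induced in regrowing axons. It was at 210.05, 200.25 and 210.82 FPKM in the controls and at 161.58, 223.39 and 227.87 in A4, A5 and A6, with A4 under and A5 and A6 over every control. The log2 fold change was -0.04 (SE 0.126, 95% interval -0.32 to 0.25, limma adjusted p = 0.943), and 0.12 (-0.01 to 0.26) without A4. Gap43, a membrane protein of growth cones and presynaptic endings, was at 188.64, 186.37 and 210.82 FPKM in the controls and at 140.08, 182.98 and 226.74 in the depleted mice. A4 and A5 were under the controls and A6 over them. Its log2 fold change was -0.12 (SE 0.155, 95% interval -0.47 to 0.24, limma adjusted p = 0.815), and 0.06 without A4.

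**Figure D2:**
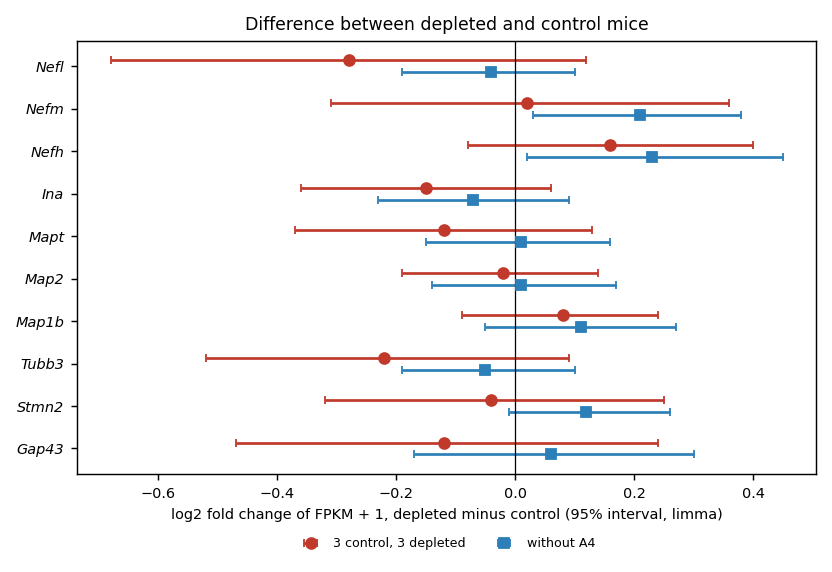
Log2 fold change of FPKM + 1 (depleted minus control) with its 95% interval from limma, from all 6 mice (red circles) and without A4 (blue squares), 1 gene per line. With all mice each interval includes 0, and without A4 those of Nefm and Nefh lie above it, with adjusted p-values of 0.327 and 0.351.

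The fold changes of Mapt, Map2, Stmn2 and Gap43 were below 0 with A4 and above 0 without it. That of Map2 also turned without A2 (0.009), and was -0.024 without A4 under the GC correction. A4 was the lowest mouse for 8 of the 10, the exceptions being Nefh (lowest in A2) and Map1b (lowest in A3). Over all genes tested, it was the lowest mouse for 28.2% and the highest for 26.9%. Relative to the control mean, its log2(FPKM + 1) was -0.75 for Nefl, -0.56 for Tubb3, -0.47 for Gap43, -0.37 for Mapt, -0.36 for Stmn2, -0.35 for Nefm and -0.32 for Ina. For Map2 it was -0.10, and for Nefh and Map1b 0.01. Nefl and Tubb3 were thus the 2 genes at or below -0.5 in A4, as were 6.1% of all genes tested. The median over the 10 genes came to -0.35 for A4, -0.00 for A5 and 0.09 for A6.

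The pan-neuronal genes were not low in A4 to this extent. The mean log2 level of 16 pan-neuronal genes was 7.72, 7.82 and 7.71 in the controls and 7.70, 7.81 and 7.82 in A4, A5 and A6. Against that mean in the same mouse, Ina was lower in every depleted mouse than in any control, by 0.18 log2 units on average, and Map1b was higher in every depleted mouse, by 0.05. On this measure 15.9% of all genes tested had groups that did not overlap. Ina and Map1b both had an exact permutation p = 0.1 (two-sided, n = 3 per group), or 0.4 adjusted over the 10 genes. Against the mean of the 8 excitatory neuron markers in place of the pan-neuronal genes, neither separated the groups, at -0.11 for Ina and 0.12 for Map1b (exact permutation p = 0.5 and 0.2, n = 3). The other 8 genes overlapped between groups. Nefl differed by -0.31 and Tubb3 by -0.24 relative to the pan-neuronal genes (exact permutation p = 0.2 for each, n = 3), and without A4 both differed by -0.11.

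**Figure D3:**
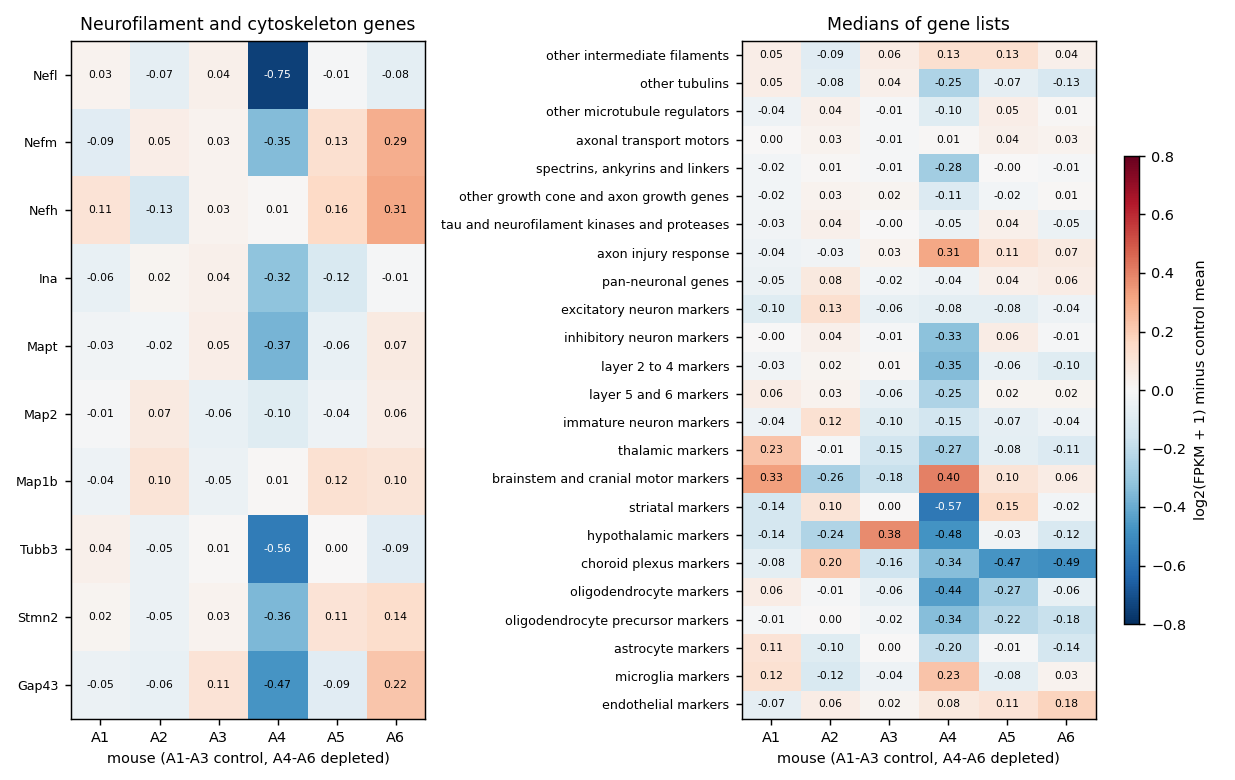
Log2(FPKM + 1) minus the control mean in each mouse, for the 10 genes (left) and as the median of each gene list (right), with blue for lower and red for higher. The column of A4 holds the lowest values of Nefl (-0.75) and Tubb3 (-0.56), while the median of the pan-neuronal genes is -0.04 there.

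Markers of other cells and regions also varied, some in A4 and some in all depleted mice. The 7 striatal markers had a median deviation of -0.57 in A4, with summed levels of 235 to 276 FPKM in control and 236 to 283 FPKM in depleted mice. Ppp1r1b made up much of these sums and was highest in A4 (159.13 FPKM). In contrast, 6 of the 7 markers were lowest in A4, as were 28.2% of all genes tested. The 8 inhibitory neuron markers had a median deviation of -0.33 in A4, with sums of 543 to 575 FPKM in control and 453 to 549 FPKM in depleted mice. The 8 markers of layers 2 to 4 had one of -0.35, with sums of 154 to 159 against 142 to 153 FPKM. Of these layer markers, 3 of 8 (Rspo1, Scnn1a and Whrn, named after their values were seen) were lower in all depleted mice than in any control, each at an unadjusted p under 0.05. Over all genes tested, 17.6% had groups that did not overlap, in either direction, and 5.74% were lower at an unadjusted p under 0.05. The other layer markers overlapped between groups, and Cux1 was higher in mean in the depleted mice. The 8 excitatory neuron markers had a median deviation of -0.08 in A4, with sums of 1110 to 1290 against 1140 to 1170 FPKM. All 10 oligodendrocyte markers were lower in mean in the depleted mice, with a deviation of -0.44 in A4 and sums of 3090 to 3360 FPKM in control and 2720 to 2810 FPKM in depleted mice. None of the markers in these lists was at 0 in any mouse. The choroid plexus markers, 6 of 7 tested, were all lower in mean in the depleted mice. Of them, 4 had an unadjusted p under 0.05 and 2 did not overlap between groups. The 7 markers summed to 168 to 324 FPKM in control and 45.5 to 70.5 FPKM in depleted mice, and Kcne2 was at 0 in A6. Most of these sums came from Ttr, at 160.05 to 313.68 FPKM in control and 40.92 to 64.3 FPKM in depleted mice. No marker in any list passed the adjusted threshold. Layer 5 holds large projection neurons rich in neurofilament, and the 10 markers of layers 5 and 6 had a median deviation of -0.25 in A4, with sums of 145 to 153 against 123 to 155 FPKM. The part of these markers in the values of the 10 genes was not tested.

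GC-rich transcripts were lower in the depleted libraries. In the 1426 genes with the highest GC content (median 60.1%), the median deviation from the control mean was -0.136, -0.099 and -0.141 log2 units in A4, A5 and A6 and -0.026 to 0.027 in the controls. In the 1429 genes with the lowest (40.1%) it was 0.049, -0.007 and 0.001. The GC content of the genes described here ran from 46.1% (Stmn2) to 58.4% (Nefh). With GC content corrected for in each mouse, A4 was at -0.75 for Nefl, -0.47 for Tubb3 and Gap43, -0.26 for Nefm and 0.11 for Nefh. Nefl was also at -0.75 without the correction. At its GC content of 48.8% the correction is small, since the median of A4 was 0.014 in the nearest bin (49.4%). The part of GC content in the values of A4 was not tested.

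**Figure D4:**
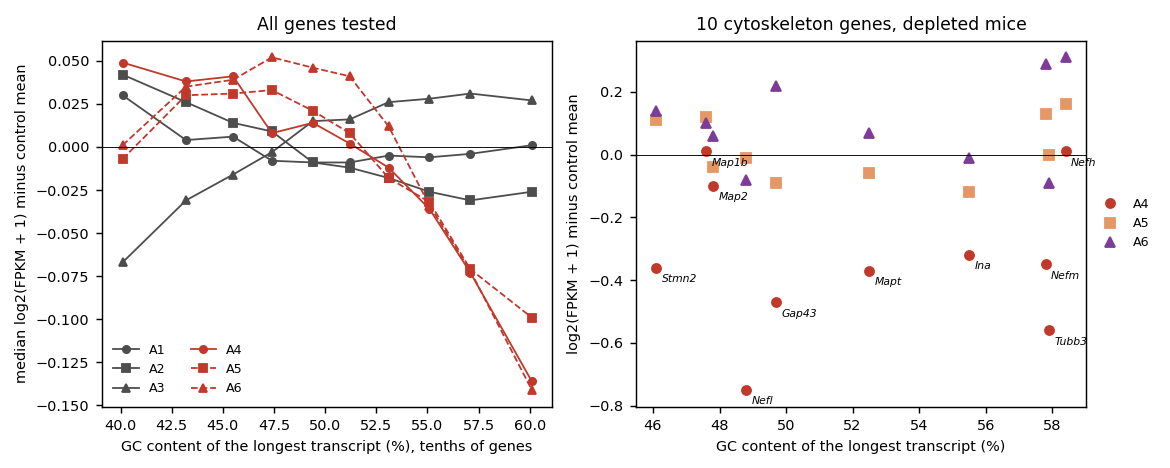
Left, median log2(FPKM + 1) minus the control mean over all genes tested, in 10 bins by GC content of the longest transcript (%), 1 line per mouse; right, the 10 genes in A4, A5 and A6 by GC content. The 3 depleted libraries reach -0.099 to -0.141 in the most GC-rich bin. The low values of A4 occur in genes from Stmn2 (46.1% GC) to Tubb3 (57.9%), while Map1b (47.6%), Map2 (47.8%) and Nefh (58.4%) are near the control mean.

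Around the 10 genes, lists of the same machinery were read in the same fit. No gene of any of them passed the adjusted threshold, and they are given by counts, the median log2 fold change beside -0.01 for all genes, and the genes at either end. At an unadjusted p under 0.05, 4.79% of all genes were higher and 5.74% lower.

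Of 8 other intermediate filament genes, 7 were higher and 1 lower in mean (median 0.10, and 0.08 without A4). Gfap, the filament of reactive astrocytes, was at 88.28, 64.48 and 84.21 FPKM in the controls and at 300.31, 108.51 and 120.13 in A4, A5 and A6. All depleted mice were above the controls and A4 was far above the other two. Its log2 fold change was 1.00 (limma adjusted p = 0.396), and 0.54 without A4. Vim, the filament of immature and reactive glia, had a log2 fold change of 0.46, and 0.19 without A4. At the lower end were the nuclear lamins Lmnb1 (-0.45, adjusted p = 0.37) and Lmnb2 (0.01).

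The other tubulins leaned the other way, with 13 of 15 lower in mean, 2 of them at an unadjusted p under 0.05 (median -0.13, and -0.07 without A4). Tubb2b, a β-tubulin of developing neurons, was at 97.46, 80.69 and 93.35 FPKM in the controls and at 65.23, 73.40 and 78.81 in the depleted mice. Its groups did not overlap, with a log2 fold change of -0.32 (limma adjusted p = 0.379), and -0.24 without A4. The α-tubulin Tuba8 had one of -0.40, and Tubd1 and Tubb6 were at the upper end with 0.09 and 0.05.

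Of 35 other microtubule regulators, 13 were higher and 22 lower, with 1 higher at an unadjusted p under 0.05 (median -0.05, and 0.02 without A4). Mapre2, a protein of growing microtubule tips, was at 0.20 and Stmn4 at 0.14, and at the lower end were Map6d1 (-0.28, and -0.08 without A4) and the tubulin-modifying enzyme Ttll7 (-0.22, and -0.07 without A4).

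The transport motors were mixed, with 14 of 24 higher and 10 lower (median 0.02) and 2 in each direction at an unadjusted p under 0.05. Kif5a, the neuronal kinesin heavy chain that carries neurofilaments along axons, was at 615.72, 620.51 and 584.22 FPKM in the controls and at 466.34, 521.99 and 514.95 in A4, A5 and A6. The groups did not overlap, as was so for 17.6% of all genes tested. The log2 fold change was -0.28 (SE 0.0703, limma adjusted p = 0.37, unadjusted p = 0.00392), and -0.23 without A4. Mapk8ip3, a motor adaptor, was at -0.16, and Kif2a, a microtubule-depolymerising kinesin, and Kif3a were at 0.22 and 0.20.

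Spectrins, ankyrins and their linkers form the lattice under the axon membrane, and 17 of 18 were lower in mean (median -0.08). Without A4, which was the lowest mouse for 14 of the 18, the median was -0.00. The paranodal gene Cntnap1 was at 45.73, 49.12 and 46.28 FPKM in the controls and at 31.57, 46.60 and 46.89 in A4, A5 and A6. A4 alone lay under the controls, and the log2 fold change was -0.19, and -0.01 without A4. At the upper end Sptan1 was at 0.06 and Ank2 at -0.00.

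Of 24 other growth cone and axon growth genes, 10 were higher and 14 lower (median -0.04). Tmsb4x, an actin-binding thymosin that microglia also express, was at 968.63, 955.94 and 978.04 FPKM in the controls and at 1285.72, 1087.21 and 1184.66 in the depleted mice. All depleted mice were above the controls, with a log2 fold change of 0.29 (limma adjusted p = 0.37, unadjusted p = 0.00478), and 0.23 without A4. Tmsb10 was at 0.23, and Dpysl3 and Marcksl1 were at the lower end with -0.34 and -0.20.

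The kinases and proteases that act on tau and neurofilaments divided evenly, 9 higher and 9 lower (median -0.01). Cdk5r2, an activator of the tau kinase Cdk5, was at 81.79, 97.78 and 90.40 FPKM in the controls and at 58.14, 72.15 and 81.45 in the depleted mice. A6 was just under the lowest control, and the log2 fold change was -0.36 (limma adjusted p = 0.406), and -0.22 without A4. Ttbk1 was at -0.18, and Cast and Mark3 at 0.13 and 0.07.

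In the axon injury response, 13 of 17 genes tested were higher and 4 lower (median 0.21, and 0.12 without A4), with 3 higher and 1 lower at an unadjusted p under 0.05. Jun, the transcription factor at the head of that response, was at 12.81, 13.50 and 14.52 FPKM in the controls and at 54.93, 14.45 and 15.25 in A4, A5 and A6. The value of A4 alone was far from the controls, and the log2 fold change of 0.73 was 0.12 without it. Tnfrsf12a, the receptor for the cytokine TWEAK, was also highest in A4 (16.91 FPKM, against 3.79 to 7.83 in the other mice), at 0.77 with A4 and 0.30 without. Chac1, a glutathione-degrading enzyme of the stress response, went the other way, from 5.51, 4.75 and 5.04 FPKM in the controls to 1.93, 3.38 and 2.71 in the depleted mice. Its groups did not overlap, with a log2 fold change of -0.75 (limma adjusted p = 0.333, unadjusted p = 0.00152), and -0.60 without A4. Ecel1 was at -0.21.

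Of the 16 pan-neuronal genes, 10 were higher and 6 lower (median 0.01, and 0.05 without A4). Uchl1, a neuronal deubiquitinase, was at 490.76, 468.62 and 505.45 FPKM in the controls and at 506.63, 580.32 and 578.78 in the depleted mice. A4 was just above the highest control, and the log2 fold change was 0.18 (limma adjusted p = 0.459), and 0.25 without A4. Elavl4 was at 0.13, and Elavl3 and Vsnl1 were at the lower end with -0.09 and -0.06.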

How the data were processed

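RNA of brain cortex from 3 depleted and 3 control mice was extracted with Trizol, and the authors made poly(A)-selected TruSeq libraries, sequenced 75-base read pairs, aligned them with TopHat, quantified known transcripts with RSEM and scaled with TMM. The authors deposited the result as FPKM per gene and mouse. The submitters' processing notes name mm9, and the annotation and tool versions are not given in the sources used here. The authors tested raw counts with DESeq, which was not repeated, since FPKM are not counts.

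The table lists 23366 genes, 4451 of them at 0 in all libraries. Genes averaging 0.5 FPKM or more over the 6 mice, 14385 in all, were tested with limma 3.58.1 in R 4.3.3 (lmFit, eBayes with a trend) on log2(FPKM + 1), which understates changes of low genes, with Benjamini-Hochberg adjustment over all genes tested. Shares and differences from the pan-neuronal mean were compared with exact permutation tests in scipy 1.17.1. The p-values set the difference between groups against the variation among these mice, and limma moderates each gene's variance by that of all genes tested. On simulated data, limma's test over 14385 genes called 168 of 200 genes given a log2 change of 1, and 0 with no gene changed. The simulation gave all mice of a gene the same spread, whereas A4 stood apart in the data. Its change was also larger than that of any of the 10 genes, so it does not measure power for changes of their size. The 10 genes and all lists were chosen with earlier results of these data known. All 10 genes are named, and of each list without them the 2 genes with the highest and the 2 with the lowest log2 fold change, apart from 1 that is not reported here. Epb41l1, Epb41l3 and Drd1 were matched by older symbols.

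GENCODE M21 on GRCm38 gave positions, transcript lengths and GC content for the 23005 genes whose symbol it held, and no coordinate was converted. About 75% of the low values used for depth were whole fragments within 0.15. Alternatives were another pseudocount, filter, scaling or variance model, array weights, GC and length corrections, and leaving out each mouse.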

Additional observations from a re-analysis of the deposited data

How the results depend on the processing

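None of the 10 genes passed the adjusted threshold under any of the alternatives run. The number of all genes past it was 4, and moved to 2 with eBayes without trend, to 20 with array weights, to 20 with the GC-content correction without A4, and to between 2 and 29 when 1 mouse was left out (2 without A1, 29 without A5 and 8 without A6). Array weights ran from 0.304 (A4) to 2.44 (A1). The GC correction without A4, the joint GC and length correction and both other ways of forming shares were chosen after seeing the data.

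Signs of small log2 fold changes turned. Without A4, Mapt was at 0.005, Map2 at 0.014, Stmn2 at 0.124 and Gap43 at 0.063. With the GC correction in addition, Mapt was at 0.006, Tubb3 at 0.036, Stmn2 at 0.086 and Gap43 at 0.034. Stmn2 was at 0.039 with array weights, and Map2 at 0.009 without A2. Nefm was at -0.002 when centred on pan-neuronal genes, and at -0.020, -0.030 and -0.108 without A1, A5 and A6. With 1 mouse left out, the ranges were -0.416 to -0.045 for Nefl, -0.108 to 0.209 for Nefm, -0.213 to 0.005 for Mapt, -0.069 to 0.014 for Map2, -0.326 to -0.046 for Tubb3, -0.123 to 0.124 for Stmn2 and -0.283 to 0.063 for Gap43. The difference in the share of Ina ran from -1.42 to 0.459 points (0.118 without A6). Relative to pan-neuronal genes, Nefm ran from -0.112 to 0.142 (0.035 without A3) and Stmn2 from -0.127 to 0.057, and with excitatory neuron markers as the reference Ina was at -0.113, Map1b at 0.116, Nefm at 0.064, Map2 at 0.015 and Stmn2 at 0.004. The cause of these turns was not tested. The shares of Nefl, Nefm and Nefh kept their direction under all alternatives run for them.

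No paired analysis was possible because the groups share no replicate numbers. With 3 mice per group, exact permutation tests cannot go below 0.1 (0.2 without 1 mouse). With A5 taken at 10.7 M fragments, estimated depth differed by up to 1.93 times between mice, and by more if A5 was shallower. Counting error was then at most 2.8% for the values of the 10 genes (3.43% with A5 at 7.14 M, and more at a lower depth). It is larger for the low values of other genes given.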
